A study of Mus musculus with 12 samples.

Results

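The 2 wild-type mouse embryonic stem cell lines of this series, WT-1 and WT-2, were compared with each other across all genes. The rule took the 3 libraries of WT-2 against the 3 of WT-1, 6 of the 12 libraries in the series, and all 31641 genes of the count table, of which 16533 had enough counts to be tested. Both lines are labelled wild type, C57BL/6 and derived from blastocysts, and were kept on mouse embryonic fibroblast feeders with serum and LIF, a cytokine that holds these cells undifferentiated. The other lines, Mut-1 and Mut-2, carry Tin2 S341X on the same strain and in the same culture, and serve here only as points of reference. The series' title names TIN2 deficiency, telomere phenotypes and differentiation as its subject, and the wild-type pair shows how far lines of that genotype lie apart before any genotype is compared. Each wild-type line is 1 line, and the sources used here do not give its sex or passage number. RNA was taken from whole cultures, so RNA of the feeder cells is part of each library.

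Embryonic stem cells are held in a self-renewing state by a network of transcription factors around Oct4 (Pou5f1), Sox2 and Nanog. Lines from the same strain can still differ in the state of imprinted genes, in X- and Y-linked expression, in chromosome copy number and in the share of cells that pass through a state resembling the 2-cell embryo. Lines that share a strain name may also come from substrains that carry different fixed variants.

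The labelled cell type was checked against markers fixed for it. Pou5f1 had 241 to 385 CPM (counts scaled to library size after TMM normalization), Sox2 had 343 to 450 CPM and Nanog had 535 to 1001 CPM over the 6 wild-type libraries. Feeder collagen was also present, with Col1a1 at 715 to 1421 CPM. The blood markers Ptprc and Hba-a1 and the endothelial marker Cdh5 were near 0, with highest values of 0.117, 0.118 and 0.236 CPM. Other markers fixed for these cell types were not: the blood marker Lyz2 had 1.06 to 2.30 CPM and the endothelial marker Tek had 18.3 to 25.5 CPM. Of the primitive endoderm markers, Gata4 had 5.91 to 13.6 CPM, Gata6 had 0.793 to 1.68 CPM and Sox17 had 0.727 to 1.93 CPM. The 34 listed feeder genes, 33 of them in the table, took 0.732%, 0.762% and 0.926% of the counts in WT-1 and 0.888%, 0.914% and 0.661% in WT-2. These shares overlapped between the lines, and their means differed by 0.0144 percentage points (exact permutation test, two-sided, p = 1.0, where 3 against 3 libraries cannot give less than 0.1). Library totals ran from 15127354 to 17891894 counts in the wild-type lines. Tinf2, the gene altered in the mutant lines, had 69.2, 64.9 and 57.7 CPM across WT-1 against 64.0, 58.8 and 60.6 CPM across WT-2, and these values overlapped.

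On the whole, libraries of a line lay about as far from each other as libraries of different lines. For each pair of libraries, the SD over 11412 genes of at least 5 CPM of the log2 ratio of their levels was taken as the distance. Within WT-1 the distances were 0.13, 0.47 and 0.47, within WT-2 they ran from 0.34 to 0.46, and the 9 distances between the lines ran from 0.26 to 0.49. WT-1 replicate 3 lay closer to WT-2 replicate 3 (0.26) than to the other libraries of its own line. WT-1 replicates 1 and 2 stood apart as the closest pair. Set against sampling noise alone, which gives 1, the chi-square per degree of freedom of this pair was 1.48, and the other within-line pairs had 12.3 to 26.7. By the design text, a line's libraries are technical replicates, but the labels do not say what was replicated. The p-values here thus measure the spread between libraries of a line and cannot be taken as the spread between independent cultures or lines. The close pair of WT-1 replicates 1 and 2 lowers that spread in WT-1.

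**Figure D1:**
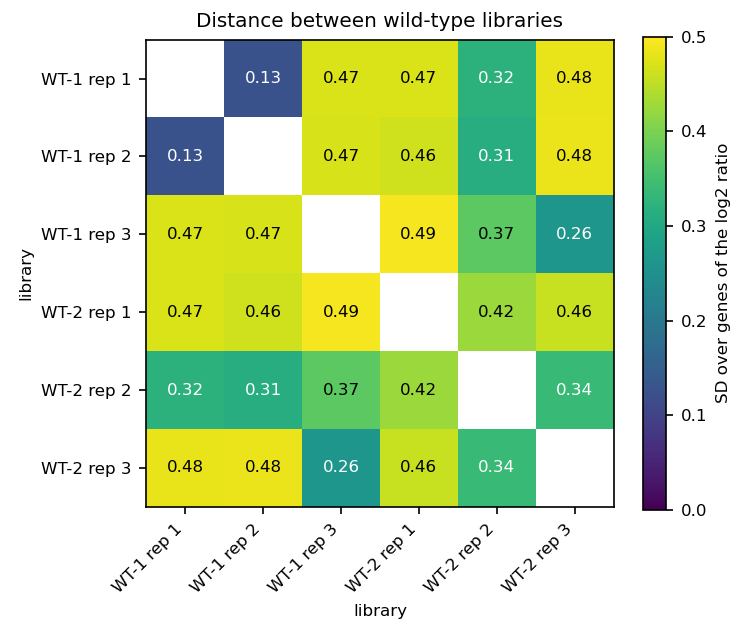
Distance between each pair of wild-type libraries (both axes list the 6 libraries; color gives the SD over 11412 genes of the log2 ratio). WT-1 replicates 1 and 2 are the closest pair at 0.13, and the third replicates of the 2 lines lie at 0.26.

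Genes that are switched on within minutes of a stimulus also split the libraries within a line. Fos, a transcription factor of that class, had 5.97, 5.74 and 319 CPM across WT-1 against 28.7, 286 and 301 CPM across WT-2. It was thus low in WT-1 replicates 1 and 2 and in WT-2 replicate 1, and high in the other 3 libraries. Fosb followed the same split, with 0.234, 0.592 and 123 CPM across WT-1 against 1.51, 145 and 141 CPM across WT-2. Of the 14 immediate early genes tested, 13 had a log2 fold change above 0 with a median of 0.56, but the libraries overlapped for 13 of the 14. The exception was Egr1, with 1.52, 0.769 and 13.1 CPM across WT-1 against 17.1, 108 and 13.3 CPM across WT-2, which did not pass (log2 fold change 3.16, SE 1.06, adjusted p = 0.531). Without WT-1 replicate 3 the list's median was 1.5.

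Between the lines, 3 of 16533 genes were called higher in WT-2 (0.0181%) and 0 were called lower. A call needed a Benjamini-Hochberg adjusted p below 0.05 in edgeR's quasi-likelihood test together with at least a 2-fold difference. At an unadjusted p below 0.05 there were 689 higher (4.17%) and 569 lower genes (3.44%), and DESeq2 called 10 higher and 29 lower. The DESeq2 calls included genes described below that edgeR did not call. Among them were Uty, Ddx3y, Xlr3b, Xlr3c, Xlr4a, Xlr5a, Dio3, Slc38a4, Brdt, Tie1, Zfp296 and Zscan4c. With the replicate number as a block, 5 genes were called higher and 1 lower, and Nxf3 and Uty were among those that joined the list. The fit of the 6 wild-type libraries alone called 0 genes, with 627 higher and 465 lower at an unadjusted p below 0.05. Leaving out WT-1 replicate 1 or replicate 2 also gave 0, and leaving out WT-1 replicate 3, which leaves the near-identical pair as WT-1, gave 35.

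By a looser measure, at least a 2-fold difference with no overlap between the libraries of the lines, 134 genes were higher (0.811%) and 118 were lower (0.714%) in WT-2. With a mean of at least 2 CPM over the wild-type libraries there were 46 higher and 36 lower. Of the 118 lower genes, 15 were among the 29 tested 2-cell-stage genes, 4 were among the 8 tested genes of the Y chromosome and 9 among the 570 of the X chromosome, beside 16533 genes tested in all. Of the 134 higher genes, 11 were among the 860 tested genes of chromosome 8 and 9 among the 570 of the X chromosome. 

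**Figure D2:**
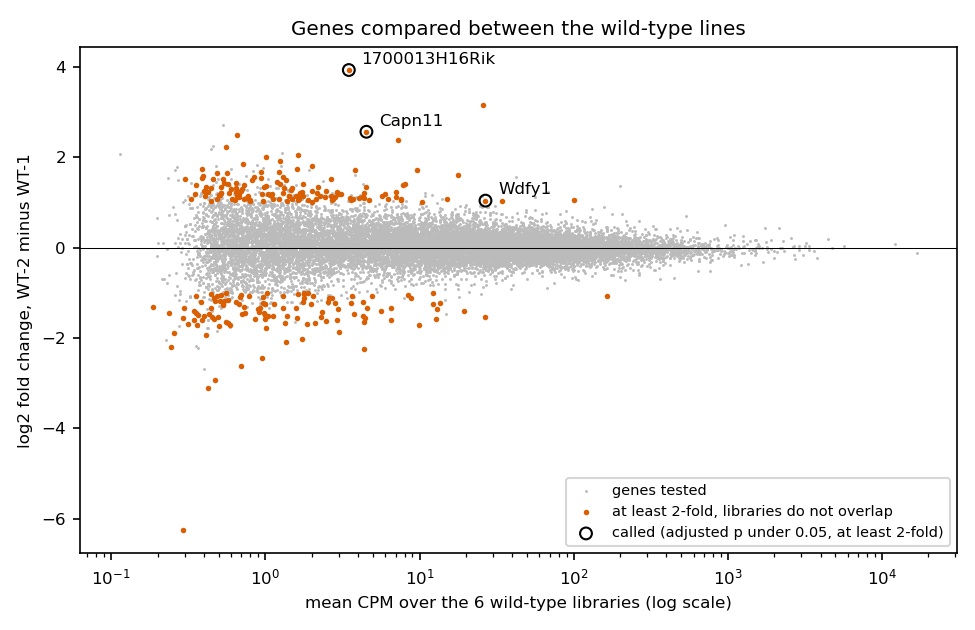
Mean CPM over the 6 wild-type libraries (x axis, log scale) against log2 fold change, WT-2 minus WT-1 (y axis), for the 16533 genes tested. Orange marks the 252 genes of at least 2-fold whose libraries do not overlap, and circles mark the 3 called genes, Capn11, 1700013H16Rik and Wdfy1.

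The other pairs of lines in the same fit gave more calls. Mut-2 against Mut-1 called 20 genes (0.121%), the mutant lines against WT-1 called 34 (Mut-1, 0.206%) and 30 (Mut-2, 0.181%), and the mutant lines against WT-2 called 61 (Mut-1, 0.369%) and 76 (Mut-2, 0.46%). These pairs share lines, so the counts stand side by side with no test. Feeder genes took 0.720% to 1.72% of the counts in the Mut-1 libraries and 0.912% to 1.61% in the Mut-2 libraries. In the wild-type libraries they took 0.661% to 0.926%, and the part of feeder RNA in these counts of calls was not tested. Among the 11412 genes of at least 5 CPM, 46 differed at least 2-fold between the wild-type line means (0.403%), against 52 between the mutant lines (0.456%) and 80 to 106 between a mutant and a wild-type line. The SD of the log2 ratio of line means was 0.25 for the wild-type pair and 0.26 to 0.32 for the other pairs. Measured by fold alone, the means of the wild-type lines were thus nearly as far apart as those of the mutant lines. These means carry the spread between libraries of a line, which was not taken out. The values are therefore not a distance between lines alone.

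Capn11 rose in WT-2. It encodes calpain 11, a calcium-dependent protease known mainly from testis, and is encoded on chromosome 17, minus strand, from 45630204 to 45659325 (GRCm38). It had 0.995, 1.07 and 1.85 CPM across WT-1 against 8.63, 7.61 and 7.01 CPM across WT-2. The lines did not overlap, and the difference was 5.90-fold (log2 fold change 2.56, SE 0.27, adjusted p = 0.0056). Both mutant lines resembled WT-2 here, with 7.32, 7.45 and 6.46 CPM across Mut-1 against 16.4, 13.6 and 10.2 CPM across Mut-2, so WT-1 was the low line. None of the 16 tested genes whose start lies within 400 kb of that of Capn11 passed the adjusted p. Their log2 fold changes ran from -0.75 (Nfkbie) to 1.08 (F630040K05Rik) with a median of -0.04. The libraries of the lines did not overlap for F630040K05Rik, whose start lies 104 kb away.

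Wdfy1 rose in WT-2 as well. It encodes a protein with a phosphoinositide-binding FYVE domain that sits on early endosomes, and is encoded on chromosome 1, minus strand, from 79702262 to 79776143. It had 17.3, 17.0 and 18.3 CPM across WT-1 against 36.4, 34.2 and 37.5 CPM across WT-2. The 3 values of each line lay within a narrow range and the difference was 2.05-fold (log2 fold change 1.04, SE 0.14, adjusted p = 0.026). The mutant lines fell on either side: Mut-1 had 22.8, 18.1 and 18.2 CPM, near WT-1, and Mut-2 had 44.2, 44.1 and 34.4 CPM, near WT-2. The call was lost without any 1 of the 3 WT-2 libraries and without WT-1 replicate 1 or 2, with an adjusted p of up to 0.219 over all alternatives, while the log2 fold change stayed between 1.01 and 1.07. Its 4 tested neighbours Ap1s3, Mrpl44, Serpine2 and Gm5529 had log2 fold changes of 0.41, -0.24, 0.18 and 0.08, with none past the adjusted p.

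Wdfy1 belongs to a short list of genes taken to vary between C57BL/6 substrains. Of the 5 tested members of this list, 1 was called, beside 3 of 16533 genes tested in all (0.0181%). The list was chosen with earlier results of these data known, so this count is description only. Nnt, a mitochondrial transhydrogenase that carries a deletion in C57BL/6J, had 0.644, 0.533 and 1.74 CPM across WT-1 against 1.21, 0.773 and 2.91 CPM across WT-2, which overlapped at a low level. Ide, the insulin-degrading enzyme, had 167 to 173 CPM across WT-1 against 167 to 185 CPM across WT-2. Btaf1 (log2 fold change -0.03, SE 0.15) and Fgfbp3 (0.43, SE 0.41), which lie near Ide, overlapped too.

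The third called gene, 1700013H16Rik, was outside the rule for naming genes and was picked once its values were known. It is encoded on the X chromosome, minus strand, from 53742901 to 53757831. It had 0.351, 0.237 and 0.672 CPM across WT-1 against 6.76, 6.18 and 6.68 CPM across WT-2, a 15.2-fold difference (log2 fold change 3.93, SE 0.46, adjusted p = 0.0072). The 6 mutant libraries had 0.0692 to 0.501 CPM, so WT-2 was the one line with a level above 1 CPM. The 6 tested genes within 400 kb had log2 fold changes of -0.41 to 0.55. No window of 50 bases in its transcripts, or in those of Capn11, occurs in a transcript of another gene of GENCODE M21.

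**Figure D3:**
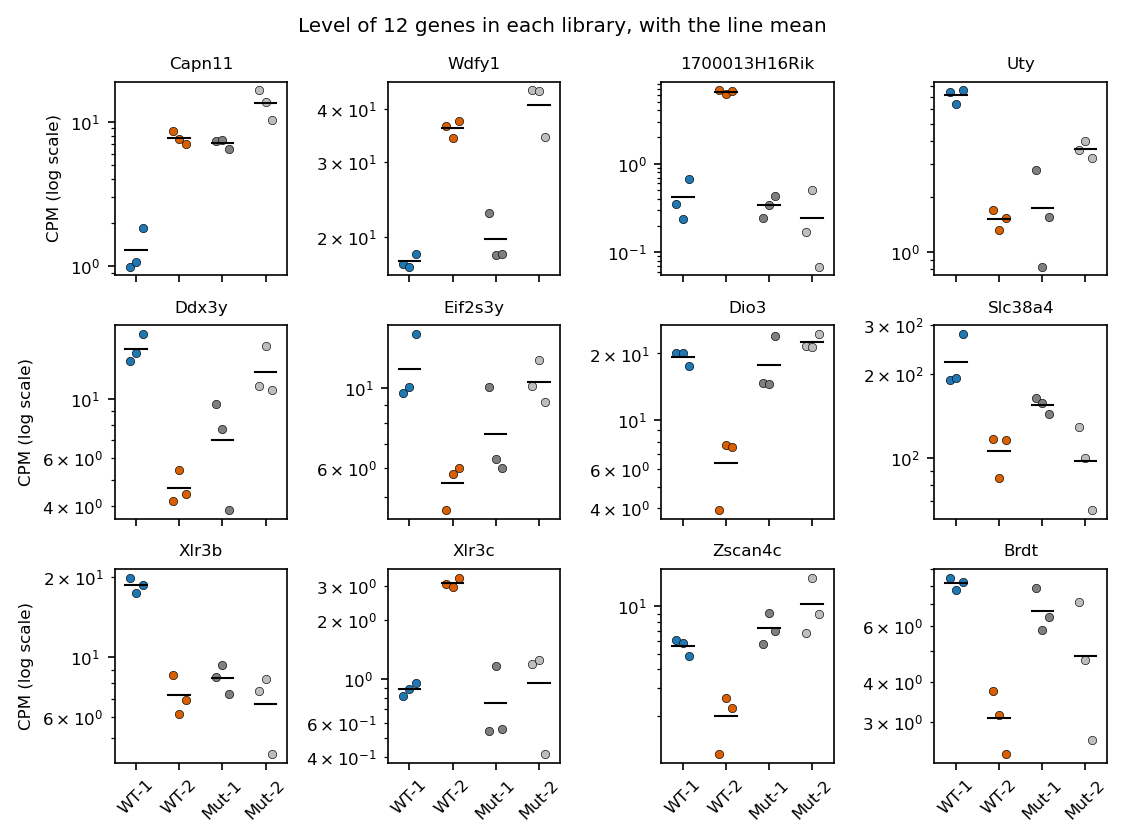
CPM (y axis, log scale) of 12 genes in the 3 libraries of each line (points), with the line mean (bar). WT-2 stands alone for 1700013H16Rik, Xlr3c and Dio3, and WT-1 stands alone for Capn11, Uty and Xlr3b, while Wdfy1 splits the 4 lines into pairs.

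Of the 8 tested genes of the Y chromosome, 4 were lower in WT-2 with no overlap (50%, beside 5.92% of all genes tested), 4 overlapped and none passed the edgeR test. DESeq2 called Uty, Ddx3y, Eif2s3y and Uba1y, each lower in WT-2, at adjusted p-values from 5.29e-08 (Uty) to 0.0136 (Uba1y). Uty, a Y-encoded histone demethylase relative, had 7.49, 6.39 and 7.62 CPM across WT-1 against 1.69, 1.31 and 1.52 CPM across WT-2 (log2 fold change -2.25, SE 0.34, adjusted p = 0.0672). It passed with the replicate block (adjusted p = 0.0418). Ddx3y, an RNA helicase, had 13.8, 14.8 and 17.4 CPM across WT-1 against 4.16, 5.41 and 4.43 CPM across WT-2 (log2 fold change -1.71, adjusted p = 0.0738). Eif2s3y, a translation initiation factor subunit, had 9.66, 10.1 and 14.1 CPM across WT-1 against 4.59, 5.76 and 6.02 CPM across WT-2 (log2 fold change -1.05, adjusted p = 0.285). In each of these 3 genes the lines did not overlap.

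The Y-linked genes did not move as 1 block. Kdm5d, a Y-encoded histone demethylase, had 1.70, 1.12 and 1.51 CPM across WT-1 against 1.33, 1.66 and 0.992 CPM across WT-2, which overlapped. Gm20775 (log2 fold change -0.08) and the pseudogenes Mid1-ps1 (0.90) and Gapdh-ps15 (0.44), each below 1 CPM on average, overlapped too. Uba1y, chosen after its values were seen, had 30 counts over the 3 WT-1 libraries and 0 over the 3 WT-2 libraries. Against a floor of 3 counts over the WT-2 libraries together, its level was at least 9.27-fold lower in WT-2, for counting error only. Xist, the RNA that coats an inactive X chromosome, had 17.4, 17.9 and 32.2 CPM across WT-1 against 20.3, 19 and 17.8 CPM across WT-2, which overlapped. The share of feeder genes overlapped between the lines, and feeder cells' part in these values was not tested directly. With that share as a covariate Uty (adjusted p = 0.0182) and Ddx3y (adjusted p = 0.0276) passed. In bulk RNA, fewer cells with a Y chromosome and less Y-linked RNA per cell cannot be told apart.

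Genes of the Xlr cluster on the X chromosome differed between the lines in opposite directions. The cluster encodes small nuclear proteins related to those of meiotic chromosomes, and holds the Xlr3, Xlr4 and Xlr5 gene copies; Xlr3b is known for imprinted expression from the maternal X. These genes came to notice after their values were seen, apart from Xlr4a and Xlr5a, which the naming rule gave. Xlr3b and Xlr3c, whose levels differed in opposite directions, are near-identical before their start sites. Their aligned RefSeq sequences (GRCm38.p6) match at 226 of 230 bases, and capitals mark the 4 bases that differ. Xlr3b lies at chrX:73191949-73192178 on the plus strand and Xlr3c at chrX:73265411-73265640 on the minus strand.
Xlr3b: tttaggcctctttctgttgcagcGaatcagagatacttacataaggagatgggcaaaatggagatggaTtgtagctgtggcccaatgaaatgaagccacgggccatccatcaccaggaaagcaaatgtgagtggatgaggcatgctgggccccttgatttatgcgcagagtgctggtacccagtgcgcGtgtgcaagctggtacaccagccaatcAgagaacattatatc
Xlr3c: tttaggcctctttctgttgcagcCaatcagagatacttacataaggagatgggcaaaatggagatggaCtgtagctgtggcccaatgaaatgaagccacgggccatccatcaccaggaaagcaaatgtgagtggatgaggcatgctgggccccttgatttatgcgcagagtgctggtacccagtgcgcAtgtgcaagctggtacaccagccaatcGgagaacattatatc

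Xlr3b had 19.8, 17.3 and 18.7 CPM across WT-1 against 8.57, 6.12 and 6.94 CPM across WT-2 (log2 fold change -1.37, SE 0.23, adjusted p = 0.0738). Xlr3c had 0.819, 0.888 and 0.952 CPM across WT-1 against 3.08, 2.97 and 3.31 CPM across WT-2 (log2 fold change 1.80, SE 0.40, adjusted p = 0.256). For both genes the lines were fully separate, in opposite directions. The mutant lines had 4.36 to 9.38 CPM of Xlr3b, near WT-2, but 0.415 to 1.25 CPM of Xlr3c, near WT-1. Xlr4a had 6.55, 7.10 and 6.16 CPM across WT-1 against 2.23, 1.90 and 2.18 CPM across WT-2 (log2 fold change -1.65, SE 0.26, adjusted p = 0.0672). Xlr5a had 7.84, 8.40 and 13.3 CPM across WT-1 against 3.5, 2.62 and 3.64 CPM across WT-2 (log2 fold change -1.60, SE 0.26, adjusted p = 0.0738). Of the 8 Xlr genes tested in the cluster (73074345 to 73292976), 6 had a log2 fold change below 0 and 2 above. Libraries did not overlap for 5 of the lower and 1 of the higher, beside 5.61% and 10.5% of all 570 genes tested on the X chromosome in the same directions. The sum over the 8 genes was 73.3, 71.2 and 67.5 CPM in WT-1, 40.0, 27.0 and 28.0 CPM in WT-2 and 14.6 to 27.5 CPM in the mutant lines.

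The split of these counts among the copies is uncertain. Of the 50-base windows in the transcripts of a gene, 56.5% for Xlr3b, 72.1% for Xlr3c, 77.7% for Xlr4a and 84.2% for Xlr5a also occur in transcripts of another gene. The sum of Xlr3a, Xlr3b and Xlr3c was 48.9, 48.0 and 35.8 CPM across WT-1 against 29.2, 19 and 17.6 CPM across WT-2, with no overlap. How reads that match several copies were counted is not given, so this sum may also depend on the mix of copies.

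Genes of the 2-cell stage had lower values in WT-2, with none called by edgeR. A small share of embryonic stem cells at any time transcribes Zscan4 and related genes of the early embryo. Of 36 listed genes 33 were in the table and 29 were tested, and edgeR called 0 of these in either direction. At an unadjusted edgeR p below 0.05, 19 were lower, beside 3.44% of all genes tested. DESeq2 called members of the list, among them Gm2016, Gm5662, Gm20767 and Zscan4c, each lower in WT-2. All 29 had a log2 fold change below 0, with a median of -1.23 beside 0.01 over all genes tested, and for 19 the lines did not overlap, against 5.92% of all genes in that direction. The list was known from earlier results to differ between these lines, so its direction is described and not tested. The summed level was 110, 106 and 85.5 CPM across WT-1 against 39.7, 67.3 and 59.8 CPM across WT-2, against 94.3 to 216 CPM in the mutant lines. WT-2 replicate 1 was the lowest library, and without it the median was -0.99.

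The Zscan4 genes encode SCAN-domain zinc finger proteins of the 2-cell embryo. Sequences of 3 copies are shown because their levels differed in the same direction and share most of their start regions: the stretches below (GRCm38.p6) match at 209 of 216 bases in all 3, and capitals mark a base that the other copies lack at that position. Zscan4c lies at chr7:11005506-11005721 on the plus strand, Zscan4d at chr7:11166183-11166398 on the minus strand and Zscan4f at chr7:11397699-11397914 on the plus strand.
Zscan4c: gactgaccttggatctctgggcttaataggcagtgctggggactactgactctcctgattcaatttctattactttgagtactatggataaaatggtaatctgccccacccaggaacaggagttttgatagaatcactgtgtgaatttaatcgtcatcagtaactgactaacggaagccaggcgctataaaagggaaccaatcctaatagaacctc
Zscan4d: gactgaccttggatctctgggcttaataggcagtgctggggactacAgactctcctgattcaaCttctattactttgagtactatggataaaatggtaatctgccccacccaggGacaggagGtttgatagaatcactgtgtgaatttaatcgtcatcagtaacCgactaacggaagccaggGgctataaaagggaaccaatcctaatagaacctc
Zscan4f: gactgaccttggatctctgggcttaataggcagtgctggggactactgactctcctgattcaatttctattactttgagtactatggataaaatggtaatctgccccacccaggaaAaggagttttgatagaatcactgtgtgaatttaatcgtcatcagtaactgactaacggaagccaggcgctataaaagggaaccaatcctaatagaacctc

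Zscan4c had 6.09, 5.80 and 4.82 CPM across WT-1 against 1.15, 2.62 and 2.25 CPM across WT-2 (log2 fold change -1.47, SE 0.36, adjusted p = 0.304). Zscan4d had 7.26, 6.45 and 5.83 CPM across WT-1 against 1.21, 2.91 and 3.64 CPM across WT-2 (log2 fold change -1.33). Zscan4f, also lower in each WT-2 library, had 1.95 to 2.63 CPM across WT-1 against 0.483 to 1.26 CPM across WT-2. Of the 50-base windows of their transcripts, 85.5% (Zscan4c), 49.6% (Zscan4d) and 86.8% (Zscan4f) occur in another gene, so levels of single copies are uncertain here too. Gm2016 and Gm5662, predicted genes on chromosome 12 that share most of their transcript windows, gave the list's smallest p-values. Gm5662 had 11.2, 8.40 and 8.40 CPM across WT-1 against 2.90, 3.68 and 4.50 CPM across WT-2 (log2 fold change -1.34, SE 0.27, adjusted p = 0.155). Gm2016 had 2.75 to 4.38 CPM across WT-1 against 0.845 to 1.43 CPM across WT-2 (log2 fold change -1.62, SE 0.29, adjusted p = 0.0998).

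**Figure D4:**
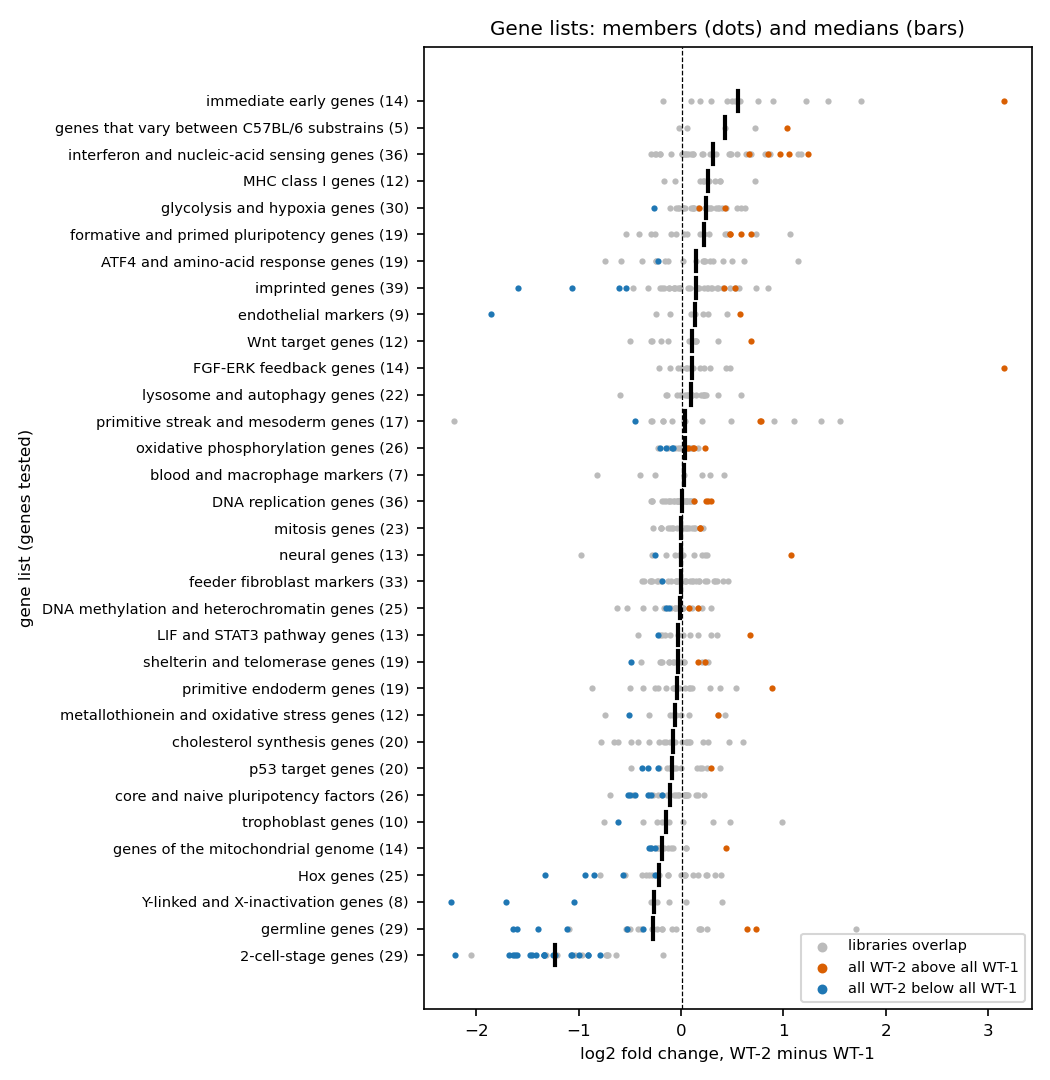
Log2 fold change, WT-2 minus WT-1 (x axis), of the members of 33 gene lists (y axis, number tested in parentheses); dots are genes, colored where the lines do not overlap, bars are medians and the dashed line is the median of all genes tested. The 2-cell-stage list lies apart with a median of -1.23, while most lists lie near 0.

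Imprinted genes are read from 1 parental copy, and edgeR called 0 of them. At an unadjusted edgeR p below 0.05, 3 were higher and 4 lower, beside 4.17% and 3.44% of all genes tested. DESeq2 called Dio3 and Slc38a4, each lower in WT-2. Of 39 genes tested, 22 had a log2 fold change above 0 and 17 below, with a median of 0.14. The lines did not overlap for 2 higher and 4 lower genes, beside 6.97% and 5.92% of all genes tested. Dio3, the thyroid hormone-inactivating deiodinase of the Dlk1-Dio3 region on chromosome 12, had 20.1, 20.1 and 17.5 CPM across WT-1 against 3.92, 7.73 and 7.54 CPM across WT-2 (log2 fold change -1.59, SE 0.26, adjusted p = 0.0738). The mutant lines had 14.5 to 24.5 CPM, so WT-2 was the low line. Other genes of that region overlapped: Meg3 had 133 to 163 CPM across WT-1 against 160 to 164 CPM across WT-2, Rian had 212 to 243 and 220 to 272 CPM, and Dlk1 had 3.08 to 6.11 and 4.22 to 6.64 CPM. Slc38a4, an amino acid transporter, had 191, 194 and 279 CPM across WT-1 against 117, 84.5 and 116 CPM across WT-2 (log2 fold change -1.07, SE 0.23, adjusted p = 0.208). Peg3, a zinc finger gene read from the paternal copy, had 92.5, 96.2 and 90.9 CPM across WT-1 against 129, 117 and 128 CPM across WT-2 (log2 fold change 0.42, adjusted p = 0.531). Plagl1, another zinc finger gene, had 61.7 to 68.5 CPM across WT-1 against 73.6 to 121 CPM across WT-2. H19 and Igf2, which share an imprinting control region, overlapped, with log2 fold changes of -0.06 and 0.22.

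Germline genes had a median log2 fold change of -0.28 over 29 tested, 7 above 0 and 22 below, and the lines did not overlap for 2 higher and 6 lower genes, beside 6.97% and 5.92% of all genes tested. The median was 0.03 without WT-1 replicate 3. Brdt, a bromodomain protein of spermatogenesis, had 8.49, 7.75 and 8.24 CPM across WT-1 against 3.74, 3.15 and 2.38 CPM across WT-2 (log2 fold change -1.40, SE 0.31, adjusted p = 0.26). Rhox6 and Rhox5, homeobox genes of the same X-linked cluster, differed in direction. Rhox6 had 3.98, 3.91 and 3.25 CPM across WT-1 against 1.15, 2.02 and 1.98 CPM across WT-2, and Rhox5 had 5.09, 5.92 and 3.08 CPM across WT-1 against 7, 7.73 and 7.34 CPM across WT-2. Neither passed, with log2 fold changes of -1.11 and 0.65.

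Pluripotency factors were present at high levels in both lines, and 0 of 26 were called (edgeR; 6 lower and 0 higher at an unadjusted p below 0.05, beside 3.44% and 4.17% of all genes tested). Nanog had 977, 1001 and 736 CPM across WT-1 against 535, 706 and 654 CPM across WT-2 (log2 fold change -0.52, SE 0.17, adjusted p = 0.529). Sall4, a zinc finger partner of Oct4, had 301, 306 and 245 CPM across WT-1 against 168, 212 and 220 CPM across WT-2 (log2 fold change -0.50, SE 0.16, adjusted p = 0.528). The lines did not overlap for these and for 4 more of the 26, each lower in WT-2, beside 5.92% of all genes tested, and the list's median was -0.10. Pou5f1 and Dppa5a overlapped. Of 19 formative and primed genes, expressed as cells leave the naive state, 13 had a log2 fold change above 0 and the lines did not overlap for 4, each higher in WT-2, beside 6.97% of all genes tested. Among them Cldn6, a tight-junction protein, had 18.1, 19 and 21.2 CPM across WT-1 against 32.8, 23.2 and 25.4 CPM across WT-2 (log2 fold change 0.48, adjusted p = 0.542).

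Lefty1 and Lefty2, secreted inhibitors of Nodal, had 17.9 to 26.9 CPM (Lefty1) and 86.5, 84.0 and 166 CPM (Lefty2) in WT-1. In WT-2 they had 22.8, 79.6 and 85.9 CPM (Lefty1) and 120, 379 and 372 CPM (Lefty2). WT-2 replicate 1 lay within the range of WT-1 for both genes, and the log2 fold changes of 1.55 and 1.37 did not pass (adjusted p = 0.529 for each). Pim1, a kinase induced by LIF through STAT3, was higher in each WT-2 library, with 88.4, 99.2 and 105 CPM across WT-1 against 176, 157 and 135 CPM across WT-2 (log2 fold change 0.68, SE 0.16, adjusted p = 0.285).

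Interferon and nucleic-acid sensing genes had a log2 fold change above 0 for 30 of 36 tested, with a median of 0.31, and the lines did not overlap for 5 of them, each higher in WT-2, beside 6.97% of all genes tested. Bst2, an antiviral membrane tether, had 83.0, 77.9 and 122 CPM across WT-1 against 158, 134 and 219 CPM across WT-2 (log2 fold change 0.85, SE 0.26, adjusted p = 0.5). Irf7, the transcription factor that amplifies interferon responses, had 3.98, 3.79 and 7 CPM across WT-1 against 7.42, 7.96 and 15.3 CPM across WT-2 (log2 fold change 1.05, adjusted p = 0.588). WT-2 replicate 3 was the highest wild-type library in both, and in the list's sum, at 1302 CPM beside 941 to 1035 CPM in the other 5. Without that library the median was 0.05. Bst2 lies on chromosome 8, whose genes were higher in WT-2 as a whole, by a median of 0.18 on the log2 scale. The part of that shift in the value of Bst2 was not tested.

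The median of chromosome 8 genes was higher in WT-2 by 0.18 on the log2 scale relative to the other autosomes. This chromosome was singled out by an earlier look at these data, so its shift is described and the p below is no independent support. Of 619 genes of at least 5 CPM, 500 (80.8%) had a higher mean in WT-2, and the WT-1 libraries lay at -0.10 to -0.08 and the WT-2 libraries at 0.06 to 0.12, with no overlap (exact permutation test over 6 libraries, two-sided, p = 0.1, the smallest possible; 0.667 after adjustment over 20 chromosomes). The difference spanned the chromosome: in 4 successive parts of it the medians were 0.19, 0.17, 0.18 and 0.17. Of 442 blocks of 25 neighbouring genes over the genome, 24 were on chromosome 8, each of them above 0, and they made up 17 of the 20 highest. In the gene fit, libraries did not overlap for 171 of 860 genes of chromosome 8 in the higher direction (19.9%, against 6.97% of all genes tested) and for 14 in the lower direction (1.63%). The other chromosomes shifted by -0.04 to 0.04. Among them, the libraries of the lines also did not overlap for chromosomes 5 and 19, with shifts of -0.02 and -0.04 and the same permutation p. With the genes of chromosome 8 left out, the same 3 genes were called, none of which lies on that chromosome.

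**Figure D5:**
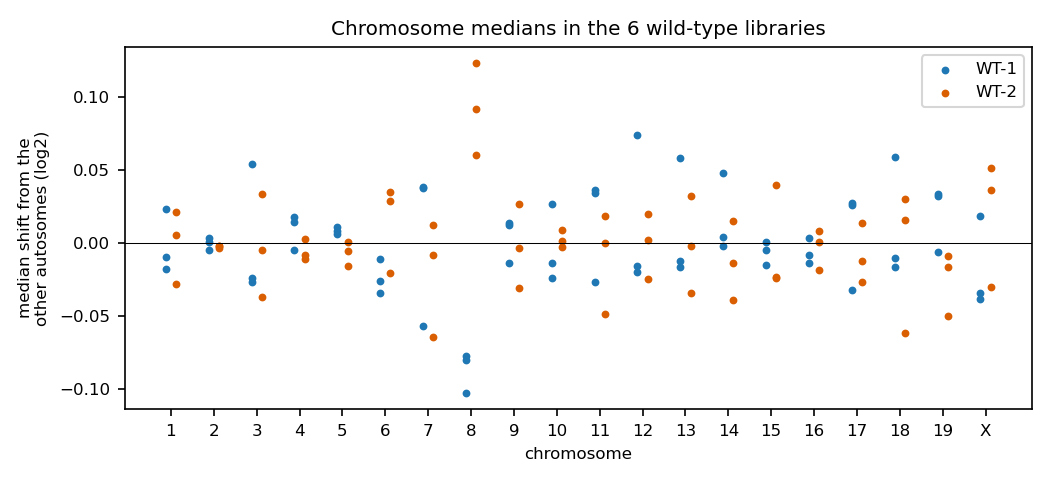
Median over genes of each chromosome of centred log2(CPM + 0.5), relative to the other autosomes (y axis), in each wild-type library (points; WT-1 left, WT-2 right). On chromosome 8 the WT-1 libraries lie at -0.10 to -0.08 and the WT-2 libraries at 0.06 to 0.12.

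The other groups are described by their medians and directions, since calls were too few to set lists apart. Of 33 lists, 32 had no member called by edgeR, the exception being the substrain list through Wdfy1. Beside 3 of 16533 genes called in all (0.0181%), the lack of a called member says little about a list. Feeder fibroblast genes had a median log2 fold change of -0.00 with 16 of 33 above 0, DNA replication genes 0.01 with 19 of 36 above 0, and mitosis genes 0.00 with 12 of 23 above 0. Shelterin and telomerase genes, the complex at telomeres and the enzyme that extends them, had a median of -0.03 with 8 of 19 above 0. Stn1, a telomere maintenance gene also on this list, had 24.8, 22.4 and 19 CPM across WT-1 against 13.0, 15.6 and 18.4 CPM across WT-2 (log2 fold change -0.49, SE 0.17, adjusted p = 0.542). Terf1, a telomere-binding shelterin subunit, overlapped with 77 to 98.0 CPM across WT-1 against 76.2 to 83.9 CPM across WT-2. Glycolysis and hypoxia genes were above 0 for 25 of 30 with a median of 0.24, which was -0.13 without WT-2 replicate 1. Tie1, a receptor kinase on the endothelial list, had 5.21, 5.15 and 3.81 CPM across WT-1 against 0.966, 1.72 and 1.19 CPM across WT-2 (log2 fold change -1.86, SE 0.32, adjusted p = 0.087), while the endothelial marker Cdh5 was near 0 in both lines.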

How the data were processed

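Total RNA of 12 libraries from 4 mouse embryonic stem cell lines, 3 per line, was sequenced, and the 6 wild-type libraries are compared here. The authors deposited raw read counts for each gene symbol as whole numbers, without normalization. Per the submitters' processing notes, HTSeq 0.6.0, HISAT2 2.1.0, Bowtie2 2.2.3, bcl2fastq and the build GRCm38 were used. The roles of these tools, the gene annotation and whether strand was used are not given in the sources used, so an antisense or overlapping gene may share reads with its partner.

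Symbols altered by software (2128 of 31641) were restored, and 29520 were placed with GENCODE M21 (GRCm38). Library totals ran from 14766477 to 17891894 counts. All 12 libraries in 4 line groups were fitted with edgeR 4.0.16 in R 4.3.3 (TMM, filterByExpr, quasi-likelihood test, contrast WT-2 minus WT-1, Benjamini-Hochberg adjustment). Exact permutation tests used SciPy 1.17.1. The fit was tested on simulated data. Alternatives were DESeq2 1.42.0, other scalings and filters, a replicate block, covariates and leaving out libraries. Intervals, floors and p-values cover counting error and the spread between libraries only.

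Same-numbered libraries of WT-1 and WT-2 deviated together from their line means, with correlations over 11412 genes of 0.19, 0.37 and 0.62, each over the 0.1 set as the rule for pairing. The highest correlations with a differently numbered WT-2 library were 0.345, 0.232 and -0.230. WT-1 replicate 1 thus matched another number better than its own, and the pairing by number is uncertain. Nothing in the labels says what a number marks. Gene lists (33) and the comparison were chosen with earlier results of these data known. Named genes were up to 15 called genes per direction of at least 2 CPM by fold, passing over predicted genes, from each list as many as 3 members of smallest p, all members of lists with at most 8 tested, and Tinf2; others are said to be chosen after their values were seen or stand beside a group as members of its list. Promoter sequences are from RefSeq (GRCm38.p6), all 5 looked up matched, and exclude bases after the start. A gene that passed with the replicate block is not reported here.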

Additional observations from a re-analysis of the deposited data

How the results depend on the processing

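The number of genes called between the wild-type lines, 3, was 3 with RLE scaling and without chromosome 8 genes and 2 with a minimum mean of 2 CPM. It was 0 with only the 6 wild-type libraries, 101 without a filter on low counts, 6 with the replicate block, 1 with WT-1 replicates 1 and 2 summed, 6 with the feeder share as covariate and 39 with DESeq2. Leaving out 1 library gave 0 to 35. Past the adjusted p alone the number was 3, and it was 3 with RLE scaling and without chromosome 8 genes, 2 with the minimum mean, 0 with only the 6 wild-type libraries and 201 without a filter. It was 6 with the replicate block, 1 with the WT-1 pair summed, 6 with the feeder share, 62 with DESeq2 and 0 to 42 when leaving out 1 library. Chosen after seeing the data, the replicate block with only the 6 wild-type libraries called 1 gene and replicates 1 and 2 of each line alone called 1, by either rule. Of the 3 called genes, Capn11 was called under 13 of 17 alternatives, 1700013H16Rik under 11 of 16 and Wdfy1 under 8 of 17, with the sign kept in each. The chromosome 8 shift ranged from 0.16 to 0.19 over its 9 alternatives. The feeder share difference changed sign with single libraries, from -0.0323 to 0.0944 percentage points. The cause of these changes was not tested; genes under about 1 CPM are limited by depth.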

Other observations

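Some further genes stood apart between the wild-type lines and were chosen after their values were seen. Nxf3, an X-linked gene of the mRNA export factor family, had 0.527, 0.473 and 0.896 CPM in WT-1, 2.66, 1.90 and 3.37 CPM in WT-2 and 9.87 to 14.1 CPM in Mut-1, the highest line. It passed with the replicate block. Zfp296, a zinc finger gene of pluripotent cells, had 46.0, 46.6 and 26.3 CPM across WT-1 against 11.6, 11.1 and 18.3 CPM across WT-2 (edgeR adjusted p = 0.248). Kcnk1, a potassium channel gene on chromosome 8, had 5.92 to 8.18 CPM across WT-1 against 13.6 to 14.5 CPM across WT-2. Hormad2, a meiotic chromosome protein, had 14 to 26.6 CPM across WT-1 against 7.67 to 8.69 CPM across WT-2.

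The genes that differed at least 2-fold without overlap, with a mean of at least 2 CPM, were also placed against the mutant lines, with no test. For the 36 lower genes, the level in Mut-1 was closer to WT-1 for 23 and closer to WT-2 for 13, and the level in Mut-2 was closer to WT-1 for 24 and closer to WT-2 for 12. For the 46 higher genes the numbers were 24 and 22 for Mut-1 and 22 and 24 for Mut-2.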
